A study of Schmidtea mediterranea with 9 samples.

Results

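The transcripts described here were set apart by the posterior wound alone in sequencing of planarian stem cells: 136 of the 46724 assembled components, of which 119 were higher and 17 were lower. A component is a group of assembled contigs and the nearest unit to a gene in these files. Members were chosen from the read counts of all 9 libraries, as CPM (mapped reads scaled to a common library total), with the most abundant component, comp0_c0, left out of the total. A member had a mean between 2 and 500 CPM, and its 3 posterior libraries all lay above, or all below, each of the other 6. Its anterior mean lay within the range of the 3 libraries of 0 h, and the log2 ratio of the posterior mean to the mean of the other 6 was at least 0.4 in size. Because these values chose the members, the levels and folds given here describe them and are no test of a wound effect.

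Poly(A) RNA came from X1 cells of the asexual strain of Schmidtea mediterranea, a freshwater flatworm. The animals were 5 to 10 mm long and had been starved for more than 7 days. The cells were live, with DNA content above the diploid level, and were sorted by Hoechst and propidium iodide from tissue in front of the pharynx. The posterior group was sampled 48 h after removal of the tail and pharynx, the anterior group 48 h after removal of the head, and the 0 h group was the control, with 3 libraries each. There was no 48 h group without a wound, so a wound and the elapsed time cannot be told apart against 0 h. The labels do not say whether replicates came from separate animals or pools.

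Planarians regrow missing parts from neoblasts, the only dividing cells of the adult body, which include pluripotent cells and progenitors already committed to a tissue. A wound that faces the tail and one that faces the head start different programmes: Wnt signals favour tail fate, and their inhibition at a head-facing wound allows a head to form. After loss of the tail and pharynx, neoblasts must supply a tail, gut branches and a new pharynx, whereas after decapitation they must supply brain and eyes. The files do not pair components with gene names, so none of the known genes of these programmes was matched to a member, and markers of neoblasts or other cells were not checked. In sorted pools, more cells of a type and more RNA per cell cannot be told apart.

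Mapped reads without comp0_c0 numbered between 14693641 and 16188700 in the posterior libraries, 15614740 and 17503283 in the anterior libraries, and 13326904 and 20180262 in the 0 h libraries. A level of 1 CPM therefore stood for 13.3 to 20.2 reads. Unmapped reads made up 11.4% in 0 h replicate 1 and 3.96% to 5.46% in the other 8 libraries.

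Of the 12239 components with a mean of 2 to 500 CPM, 387 had all 3 posterior libraries above the other 6, which is 3.16%, and 124 had them all below, which is 1.01%. The anterior mean lay within the 0 h range at 261 of the first and 70 of the second, and the minimum ratio left 119 and 17. The same rule turned round for the anterior wound gave 48 components, 5 higher and 43 lower. There, 0.335% of the components in that window had every anterior library above the other 6 and 0.809% had every one below. The members just inside the minimum ratio had log2 values of 0.4011 and 0.4043 among the higher and -0.4035 and -0.4078 among the lower. Those just outside it had 0.396 and 0.3984, and -0.3721 and -0.3867.

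The higher members had a median posterior level 1.56-fold that of the other 6 libraries, with a range of 1.32-fold to 4.19-fold. Summed over the 119, the level was 3792, 3826 and 3718 CPM in posterior replicates 1 to 3, 2843, 2411 and 2790 CPM in anterior replicates 1 to 3, and 1649, 2024 and 3166 CPM in 0 h replicates 1 to 3. The posterior libraries lay close together, while the 0 h libraries spread widely and 0 h replicate 3 came nearest to them. The lower members had a median posterior level 0.683 times that of the other 6, with a range of 0.419 to 0.756. Their 17 components summed to 189.7, 149.2 and 183.7 CPM in posterior replicates 1 to 3, 261.0, 252.5 and 260.2 CPM in anterior replicates 1 to 3, and 380.7, 243.8 and 277.9 CPM in 0 h replicates 1 to 3. In this sum 0 h replicate 1 stood highest, through 4 members with a 0 h range of 2-fold or more. These 4 summed to 192.3, 57.4 and 95.9 CPM in 0 h replicates 1 to 3. The other 13 were nearly level there, at 188.3, 186.3 and 182.0 CPM.

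**Figure D1:**
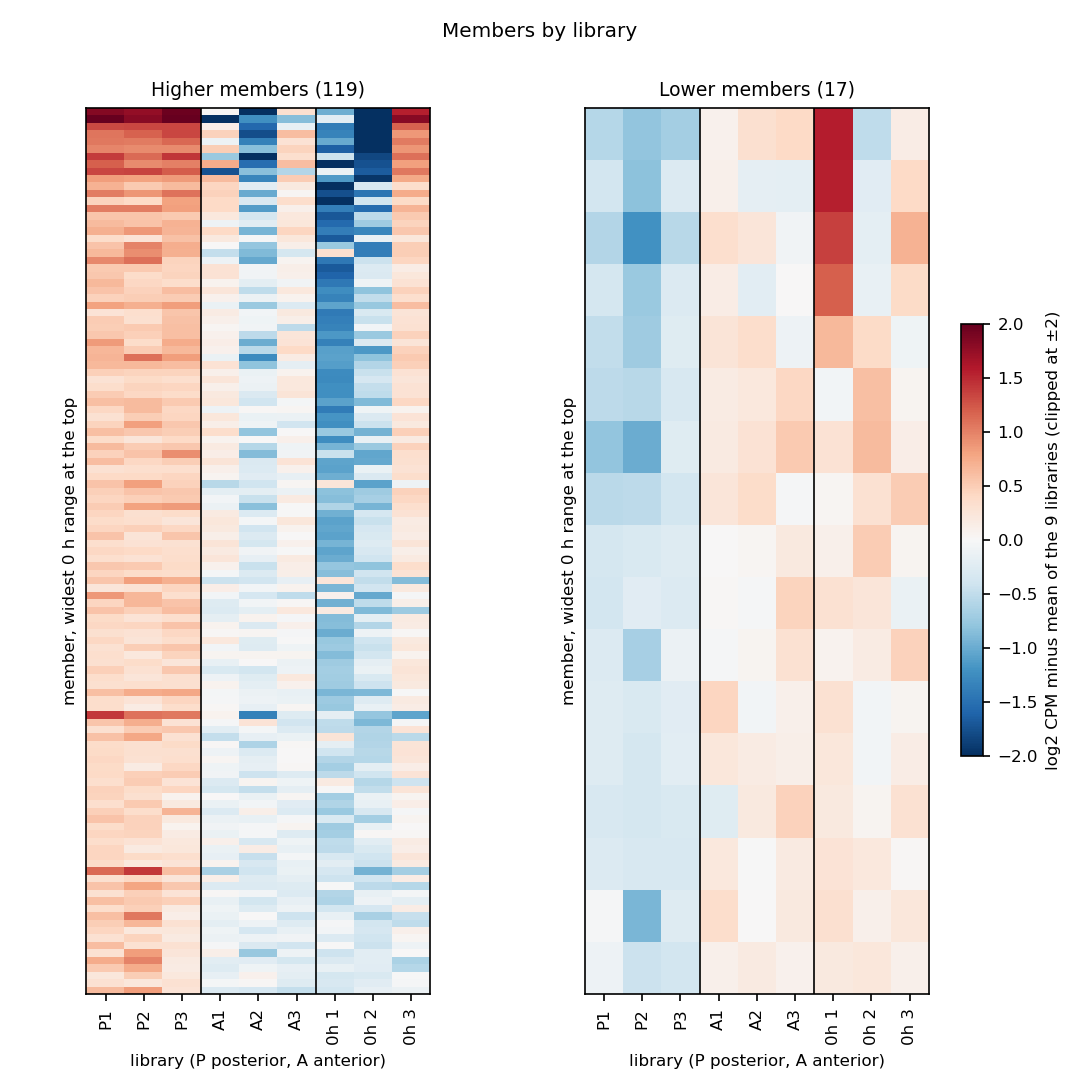
Log2 CPM of every member in each library, less the member's mean over the 9 libraries, for the 119 higher members (left) and the 17 lower members (right). Columns are posterior (P), anterior (A) and 0 h libraries, and members with the widest 0 h range stand at the top. Among the higher members the top rows are dark blue in 0 h replicates 1 and 2 and red in 0 h replicate 3, and among the lower members the top rows are red in 0 h replicate 1.

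The higher member with the largest ratio was comp10306_c0, with 1 contig of 383 bases. It stood at 7.49, 6.53 and 7.97 CPM in posterior replicates 1 to 3, at 0.171, 0.784 and 1.02 CPM in anterior replicates 1 to 3, and at 1.58, 0.446 and 6.50 CPM in 0 h replicates 1 to 3. The posterior mean was 4.19-fold that of the other 6, but 0 h replicate 3 reached almost the lowest posterior library, at 128 reads against 102. The 3 anterior libraries held 3, 13 and 16 reads of it, so this member was low after the head wound as well as in 0 h replicates 1 and 2.

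The most abundant higher member, comp621_c0 (1097 bases), averaged 333.6 ± 6.82 CPM in the posterior group, 285.1 ± 40.5 CPM in the anterior group and 212.5 ± 84.5 CPM at 0 h (SD, n = 3 each). Its libraries read 335.5, 326.1 and 339.3 CPM after the posterior wound, 315.4, 239.0 and 300.8 CPM after the anterior wound, and 134.0, 201.6 and 302.0 CPM at 0 h. The lowest posterior library lay only 1.034-fold above the highest of the others, anterior replicate 1. The posterior replicates differed far less among themselves than did those of 0 h.

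A smaller number of higher members stood further from the other 6 libraries. The widest gap belonged to a component of 698 bases, described, like the others here given by length, after its values were seen. It stood at 4.49, 3.59 and 3.52 CPM in the posterior libraries, at 1.77, 0.663 and 1.41 CPM in the anterior libraries and at 1.501, 0.991 and 0.813 CPM at 0 h. Its lowest posterior library was 1.99-fold above its highest other library, with 57 reads against 31. A member of 1168 bases averaged 42.3 ± 4.21 CPM in the posterior group, 22.6 ± 0.117 CPM in the anterior group and 21.4 ± 4.94 CPM at 0 h (SD, n = 3 each). Its gap was 1.45-fold, over 635 reads in posterior replicate 3 and 361 in 0 h replicate 1. The longest higher member, of 2692 bases, averaged 6.24 ± 1.69 CPM in the posterior group, 2.27 ± 0.404 CPM in the anterior group and 1.90 ± 0.399 CPM at 0 h (SD, n = 3 each). In these members, as in all, the rule itself keeps the posterior libraries apart and makes the anterior and 0 h libraries overlap. Neither feature is therefore evidence of a wound effect. Exact Poisson intervals on the reads of the nearest libraries, which cover counting error only, were apart at the 698-base and 1168-base members. At the 2692-base member they overlapped, with 72 reads in posterior replicate 3 against 42 in anterior replicate 3.

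Among the lower members, comp159_c0 (792 bases) had the largest ratio, a posterior mean 0.419 times that of the other 6. It stood at 18.0, 11.7 and 18.5 CPM in posterior replicates 1 to 3, at 34.1, 32.1 and 25.7 CPM in anterior replicates 1 to 3, and at 69.6, 23.69 and 44.0 CPM in 0 h replicates 1 to 3. Its 0 h libraries spread 2.94-fold, and the nearest of them was 1.28-fold above the highest posterior library. The most abundant lower member, comp53_c0 (539 bases), stood at 39.3, 21.1 and 33.5 CPM in the posterior libraries, 50.8, 39.9 and 45.7 CPM in the anterior libraries, and 49.5, 42.6 and 46.5 CPM at 0 h. Posterior replicate 1 and anterior replicate 2 were nearly level, with 577 and 662 reads. A lower member of 4 contigs, the longest of 2024 bases, was steadier, at 5.98 ± 0.125 CPM in the posterior group, 8.08 ± 0.641 CPM in the anterior group and 8.30 ± 0.696 CPM at 0 h (SD, n = 3 each).

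**Figure D2:**
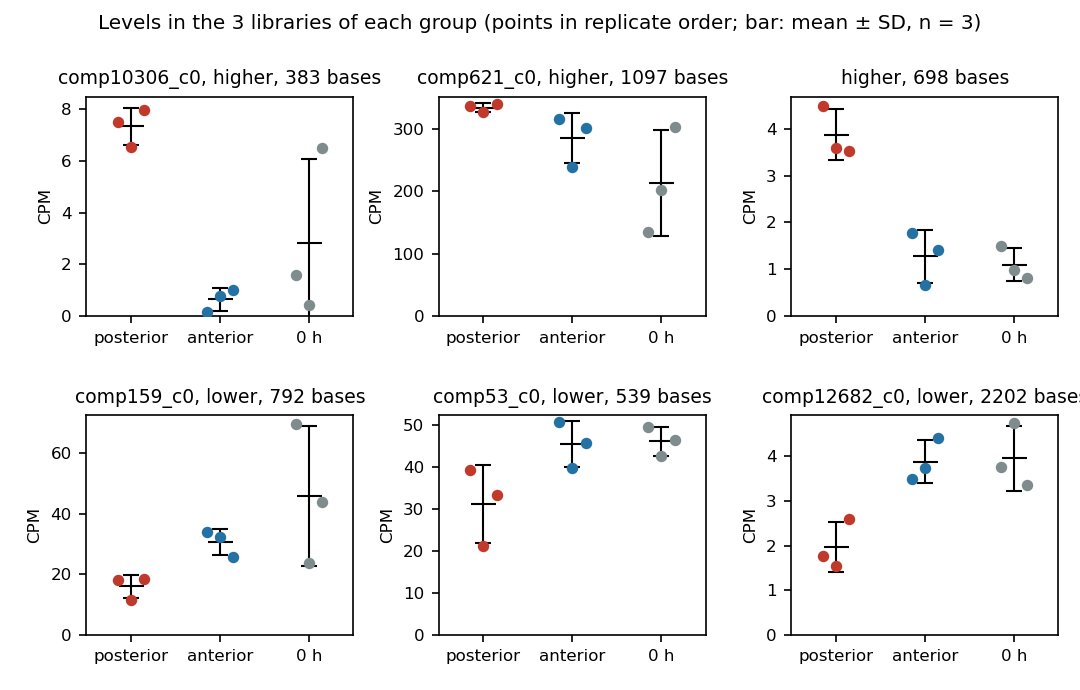
CPM in each library of the posterior, anterior and 0 h groups for 3 higher members (top) and 3 lower members (bottom); bars are the mean ± SD of 3 libraries, cut at 0. In comp10306_c0 the third 0 h library lies at 6.50 CPM, beside the posterior libraries, whereas in the 698-base member the groups are 1.99-fold apart at their nearest libraries.

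The gap between the posterior libraries and the nearest other library was small for most members. Its median was 1.07-fold for the higher members and 1.11-fold for the lower members, and it was under 1.1-fold at 79 of 119 and 7 of 17. It reached 1.2-fold at 12 higher and 5 lower members. With exact 95% Poisson intervals on the reads of the 2 nearest libraries, which cover counting error only, the intervals were apart at 10 higher members and 1 lower member. At the other 109 and 16 the intervals overlapped, which does not by itself place a difference within counting error. Gaps and intervals were computed for members only, on levels the rule used, so no share over all components stands beside these counts.

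0 h replicate 3 was the nearest library for most higher members. It was the highest of the other 6 at 83 of 119 (69.7%), against 26.99% of the components in the same window. With that library set aside, the median gap of the same 119 members was 1.19-fold and 53 reached 1.2-fold, whereas setting aside any other single library of the 6 left the median at 1.07-fold and at most 17 members at 1.2-fold. The range of the 0 h libraries was 2-fold or more at 71 of 119 (59.7%), against 21.3% of the window. The condition on the anterior mean is met more often where that range is wide, at 88.6% of window components with a 2-fold range and 63.5% of those with less, so the rule itself favours such components.

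At 94 of the 119 higher members the anterior mean lay above both 0 h replicates 1 and 2, so that only 0 h replicate 3 kept it within the range. The same held at 33.9% of the window components that met the condition. At 65 members every anterior library was above both of these 0 h libraries, a count for which the share of the window was not computed. The anterior mean exceeded the 0 h mean at 96 of 119 (80.7%), against 46.0% of the window. The name "set apart only by the posterior wound" thus rests on 0 h replicate 3 for most of the higher set, and whether that library or the other pair better represents uninjured cells was not tested.

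A single order of the 6 other libraries recurred among the higher members. At 75 of 119 (63.0%), 0 h replicates 1 and 2 and anterior replicate 2 all lay below 0 h replicate 3 and anterior replicates 1 and 3, which held at 16.5% of the window and at 37.0% of all 387 components with higher posterior libraries. One such member, of 439 bases, stood at 44.5, 48.1 and 53.3 CPM in the posterior libraries, 29.0, 6.21 and 32.3 CPM in the anterior libraries, and 8.40, 3.91 and 38.6 CPM at 0 h. The order was found at 57 of the 71 members with a wide 0 h range and 18 of the 48 with a narrow one. It was found at 0 of the 17 lower members, against 1.61% of all 124 components with lower posterior libraries. At so low a share, 0 of 17 is no result about the lower members. Among the 71 the posterior replicates were close, with a median 1.11-fold between the highest and lowest, and among the 48 they were 1.18-fold apart. The median over the window was 1.31-fold. Since the rule asks the lowest posterior library to exceed each of the 6 others, the choice of members bears on this closeness.

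**Figure D3:**
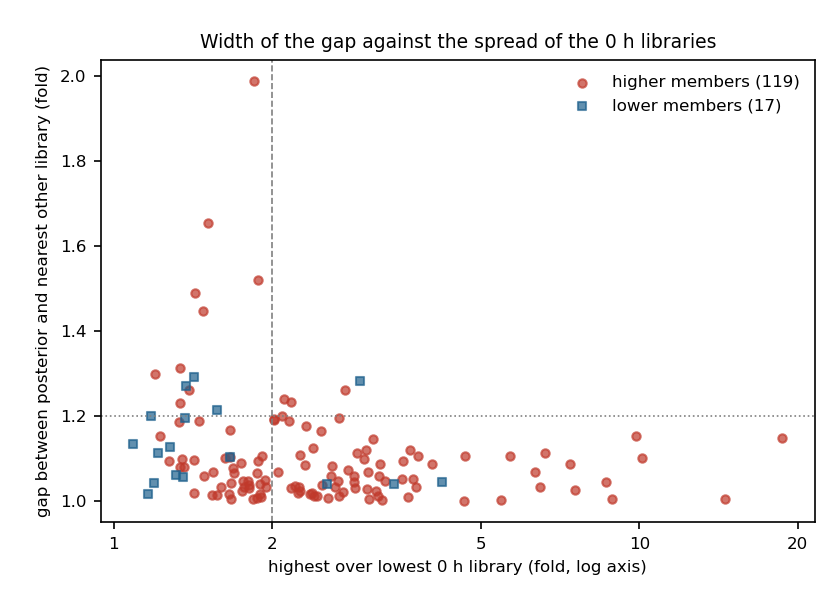
Gap between the posterior libraries and the nearest other library (fold, vertical) against the highest over the lowest 0 h library (fold, log axis) for the 119 higher (circles) and 17 lower (squares) members; lines mark 2-fold and 1.2-fold. The widest gaps, from 1.45-fold to 1.99-fold, all belong to members whose 0 h libraries spread less than 2-fold.

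Among the lower members the 0 h libraries were near the window in 2 respects. 0 h replicate 1 was the highest of the other 6 at 6 of 17 (35.3%), against 31.3% of the window. Of the 17, 4 (23.5%) had a 0 h range of 2-fold or more, against 21.3% of the window. At the median of these 4, 0 h replicate 1 stood 2.43 times the mean of the 9 libraries. One of them, with 2 contigs and a longest contig of 1571 bases, stood at 16.2, 13.96 and 15.1 CPM in the posterior libraries, 25.5, 30.0 and 31.8 CPM in the anterior libraries, and 71.4, 16.9 and 26.7 CPM at 0 h. The other 13 had a median posterior level 0.708 times that of the other 6 and a median gap of 1.13-fold. Posterior replicate 3 was the highest posterior library, and so the nearest to the rest, at 12 of 17 (70.6%), against 30.8% of the window.

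The membership depended on which libraries entered. Without 0 h replicate 3, 86 components met the rule in the higher direction and 25 of these were among the 119. Leaving out a 0 h library narrows the range that the anterior mean must fall in, so part of this loss is built into the rule: 76 members were kept without 0 h replicate 1 and 98 without 0 h replicate 2. The higher count was 248 without posterior replicate 2 and 451 without posterior replicate 3. The lower count was 41, 65 and 91 without posterior replicates 1, 2 and 3, 32 without anterior replicate 2 and 26 without anterior replicate 3. The minimum ratio held in each of the 9 leave-outs at 88 of 119 higher members and 10 of 17 lower members. It also depended on scaling. With trimmed mean of M values (TMM) factors 64 components were higher, 57 of them members, and 30 were lower, 13 of them members, and 42 higher and 9 lower members were kept under all 3 other scalings tried.

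**Figure D4:**
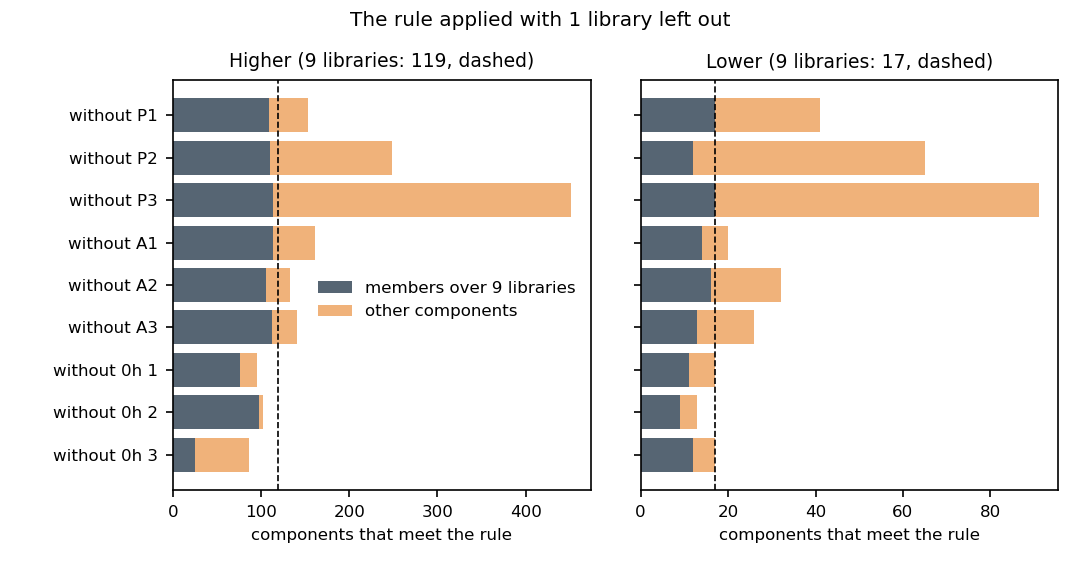
Number of components that meet the rule when 1 library is left out, higher (left) and lower (right); dark bars are components that are members over 9 libraries, light bars are others, and dashed lines mark 119 and 17. Without posterior replicate 3 the higher count is 451, and without 0 h replicate 3 only 25 of 86 are members.

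No member passed edgeR's quasi-likelihood test, adjusted by Benjamini-Hochberg over 21058 components, in a fit of all 9 libraries with TMM scaling. All 136 members were tested. For the posterior group against the mean of the other groups, 0.00475% of components were called higher and 0% lower, and the lowest adjusted p among members was 0.142, at the 2692-base member (log2 fold change 1.52, SE 0.22). At an unadjusted p under 0.05 there were 81 of 119 higher members, against 2.44% of components called higher, and 15 of 17 lower members, against 1.85%. Since the rule used this contrast, these shares support nothing. DESeq2 called 7 higher members and 1 lower member, against 0.0949% and 0.0449% of components, and limma-voom called 0, against 0.00475% of components higher and 0% lower. Without 0 h replicate 3, edgeR called 20 of the higher members, against 0.526% of components called higher, and 0 of the lower, against 0.018%, and without 0 h replicate 1 it called 2, against 0.0134%.

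Against 0 h alone, edgeR called none of the members, where 0.0285% of components were called higher and 0% lower. At an unadjusted p under 0.05 there were 82 higher members (2.66% of components) and 15 lower members (3.35%), and DESeq2 called 6 higher members (0.139%) and 1 lower member (0.0899%). The median log2 fold change was 0.74 over the higher members, -0.60 over the lower members and -0.03 over all components tested. Leaving out 0 h replicate 3 gave 42 higher members called by edgeR, against 1.18% of components called higher, and 0 lower members, against 0.126%, and leaving out 0 h replicate 1 gave 2, against 0.0403%. Against the anterior group, edgeR called none, where 0% of components were called in either direction. At an unadjusted p under 0.05 there were 37 higher members (1.83% of components) and 13 lower members (0.869%), and DESeq2 called 3 higher members (0.0642%) and none of the lower (0.0138%). The median log2 difference from the anterior group was 0.46 over the higher members, -0.52 over the lower and 0.00 over all components. These comparisons share the posterior libraries, so they do not support each other. The rule drew on the levels of all 3 groups, so the member counts in both comparisons describe the members and support nothing.

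In the authors' deposited table of DESeq results, 3 of the 119 higher members were called after the posterior wound, where 0.033% of components were called higher, and 0 of the 17 lower, where 0.0176% were. The posterior folds of that deposited table ran from 1.23 to 3.37 over the higher members, with a median of 1.65, and from 0.341 to 0.745 over the lower members, with a median of 0.643. After the anterior wound the authors' deposited table called none of the members, with 0.0176% of components called higher and 0.00221% lower, and its median folds were 1.18 for the higher and 1.00 for the lower members. That table comes from the libraries that chose the members, and the rule kept each member's anterior mean within the 0 h range. Its calls and folds for members are therefore a description and support nothing. At comp10306_c0 the deposited table gives a fold of 2.498 after the posterior wound and 0.240 after the anterior wound, and at comp159_c0 0.341 and 0.696. The posterior values of the 28 members with several contigs rest there on a column in which posterior replicate 3 repeats replicate 2. One of the 3 calls is such a member, with a longest contig of 2079 bases and an adjusted p of 0.0044 in the authors' deposited table (DESeq). Its deposited count for posterior replicate 3 is 409, where the library itself holds 224 reads.

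Length and contig number were not used by the rule. The longest contig of the higher members had a median of 831 bases, and that of the lower members 1642 bases, against 1187 bases over the window. Under 1000 bases were 73 of 119 higher members (61.3%) and 7 of 17 lower members (41.2%), against 40.7% of the window. Several contigs were assembled for 21 higher members (17.6%) and 7 lower members (41.2%), against 36.9%. Libraries themselves differed in this respect. Components under 1000 bases held 24.1%, 23.0% and 27.9% of the window's reads in posterior replicates 1 to 3, 25.8%, 23.9% and 24.8% in anterior replicates 1 to 3, and 21.4%, 24.1% and 26.0% in 0 h replicates 1 to 3. The part of these differences in the choice of members was not tested.

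The members with several contigs held 57 contigs in the higher set and 19 in the lower set. The levels of contigs add up to the totals that the rule used, whereas the share of a component's reads that each contig takes was not used by it. No change of these shares was called among members. edgeR's test for differential usage (diffSpliceDGE), adjusted over the 4728 components with several contigs tested, called 0% of components and 0 of the 27 members it could test, with an adjusted p of 1.00 at each. At an unadjusted p under 0.05 it found 53 components (1.12%) and 0 members, and limma-voom's diffSplice found 2 members at that level, against 1.08% of components, and called 0. An exact two-sided permutation test of the share of the main contig over the 84 ways of taking 3 of 9 libraries gave p under 0.05 at 2 of 28 members, the lowest being 0.0119, the smallest p the design allows. Its adjusted p over the 28 was 0.333. The permutation test was run on members only, so no share over all components stands beside the 2. In that member, with contigs of 1863 and 1608 bases, the longer contig took 58.5 ± 0.652% of reads in the posterior libraries and 53.9 ± 1.36% in the other 6 (SD, n = 3 and 6), higher in 3 of 3 posterior libraries.

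The higher member with the lowest usage p was comp12043_c0 (edgeR's diffSpliceDGE, unadjusted p = 0.054). Its main contig of 1100 bases took 73.2%, 75.9% and 74.5% of its reads in posterior replicates 1 to 3, 82.2%, 89.7% and 77.0% in anterior replicates 1 to 3, and 91.0%, 90.5% and 76.0% in 0 h replicates 1 to 3. Contigs of 678 and 629 bases took the rest. The libraries with the highest share of the main contig, 0 h replicates 1 and 2 and anterior replicate 2, were those in which most higher members were low. In comp14551_c0 the main contig of 652 bases took 82.9%, 80.5% and 78.1% in the posterior libraries, 100%, 97.2% and 94.5% in the anterior libraries, and 66.7%, 98.3% and 80.3% at 0 h, so 0 h replicates spanned both sides of the posterior shares. Among the lower members, comp12682_c0 and comp3934_c0 had the lowest p, 0.372 and 0.386. In comp12682_c0 the contig of 2160 bases took 45.0 ± 6.64% of the reads in the posterior libraries and 53.0 ± 8.57% in the other 6 (SD, n = 3 and 6), and in comp3934_c0 the contig of 3359 bases took 39.2 ± 5.25% in the posterior libraries and 46.0 ± 8.76% in the other 6. In both the libraries of the groups overlapped.

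**Figure D5:**
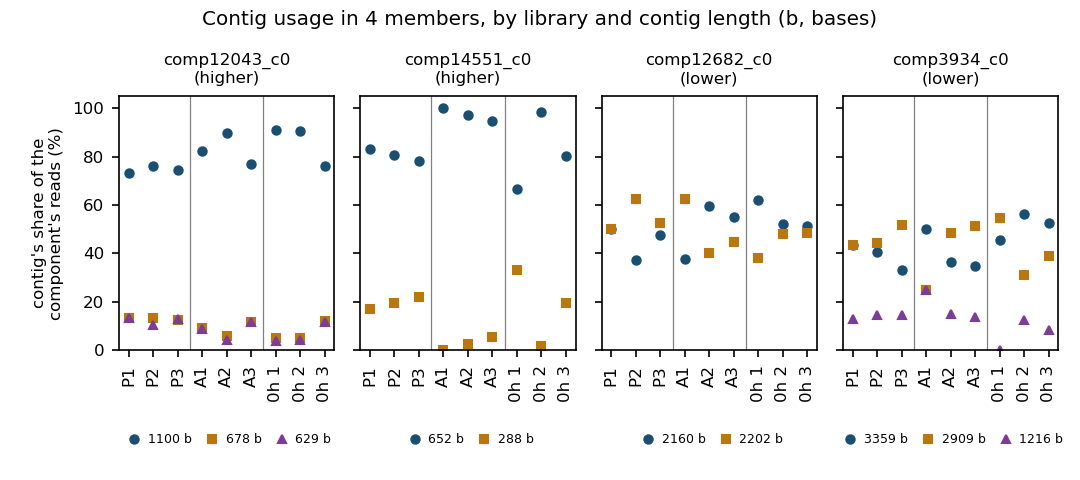
Share of a component's reads taken by each of its contigs (percent, vertical) in each posterior (P), anterior (A) and 0 h library, for the higher and the lower members with the lowest usage p. In comp12043_c0 the main contig lies between 73.2% and 75.9% in the posterior libraries and at 76.0% in 0 h replicate 3, below its 90.5% and 91.0% in the other 0 h libraries; the shares in the lower members overlap between groups.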

How the data were processed

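Bowtie2 2.0, SAMtools and DESeq were used per the submitters' processing notes; which assembly served as the reference was not given in the sources used here. The authors deposited read counts per contig for each library, with contig length, and a table of counts summed by component. Their deposited DESeq table holds, per the file headers, the fold (ratio) and the p-value for each wound against 0 h. Titles gave the groups.

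In the deposited sums, all 7189 components of several contigs hold posterior replicate 2 in the column of replicate 3. Counts were therefore summed from the per-library counts, the deposited table being an alternative. Per-sample columns left without a sample or group numbered 0.

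edgeR 4.0.16 in R 4.3.3 (filterByExpr, TMM, glmQLFit over 3 groups, Benjamini-Hochberg, calls at 0.05) tested 21058 components without comp0_c0, and diffSpliceDGE tested contigs. limma 3.58.1 and DESeq2 1.42.0 were alternatives. SE is the absolute log2 fold change over the square root of F. The scripts were tested on simulated data.

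Members and settings were chosen with earlier results of these data known. Named were, per direction, the members with the largest ratio and the highest mean, and up to 2 with the lowest usage p, since the files give no gene names. The p-values reflect only how far these libraries scatter, and that scatter may be technical.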

Additional observations from a re-analysis of the deposited data

How the results depend on the processing

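Higher members numbered 119 and lower members 17. They were 64 and 30 with TMM scaling, 231 and 45 with the deposited summed table, 21 and 2 at a log2 of at least 1, 261 and 70 with no minimum log2, and 199 and 54 from 0.5 CPM. With DESeq2 size factors 54 were higher, and with the anterior mean anywhere 42 were lower. Leaving out each library gave 86 to 451 higher and 13 to 91 lower. Of the settings chosen after seeing the data, a 0 h range without replicate 3 left 25 higher, and removal of 0 h replicate 3 with anterior replicate 2 left 31 lower. The other settings stayed within 1.5 times the count. A looser rule admits more components and a stricter one fewer by construction; for the rest the cause was not tested.

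edgeR called 1 component for the posterior group against the mean of the others, 6 against 0 h and 0 against the anterior group. DESeq2 called 28, 56 and 17. Without a filter the first was 3. Fits of the 6 libraries compared gave 0 against 0 h and 4 against the anterior group. Leaving out each library gave 0 to 121 (0 without any 1 of the posterior or anterior libraries, 3 without 0 h replicate 1, 121 without 0 h replicate 3), 2 to 291 (2 without posterior replicate 1 or 0 h replicate 2, 3 without posterior replicate 2 or any 1 anterior library, 291 without 0 h replicate 3), and 0 to 0. Contig usage was called at 0 components, and 0 to 10 with libraries left out (1 without posterior replicate 2, 10 without 0 h replicate 3); among members it was 0 in each alternative tried.

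With the replicate number as a block edgeR called 1, 8 and 0, and 0 for contig usage. The numbers did not pair the libraries throughout. A correlation above 0.1 was found at 3 of the 9 pairs that share a number. Only 4 of the 9 libraries were closest to a library of their number. The highest correlations were nevertheless of this kind, 0.4535 between posterior and 0 h replicates 3 and 0.349 between posterior and 0 h replicates 2. The lowest pair sharing a number, anterior and 0 h replicates 1, had -0.244. Whether some numbers mark a shared batch was not tested. The log2 ratios of comp10306_c0, comp621_c0, comp159_c0 and comp53_c0 kept their sign in every setting computed. Where libraries were only left out, the rule fixes that sign, so it is no sign of robustness. The log2 ratio moved by more than the SD of the log2 posterior levels in 5 settings at comp10306_c0 and 8 at comp621_c0. It stayed within that SD in 9 and 6 settings at these, and in all 14 at comp159_c0 and at comp53_c0. The log2 ratio of comp10306_c0 was 2.07 over all 9 libraries and 3.19 without 0 h replicate 3. Near the lowest mean of 2 CPM, few reads stand behind each level, which limits the separation of low members. The fewest reads of any member in a library were 3, at comp10306_c0 in anterior replicate 1.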
